A study of Mus musculus with 4 samples.

Results

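Polycomb repressive complex 1 (PRC1) is assembled from alternative subunits, and its genes were followed in female mouse embryonic stem cells (mESCs) before differentiation, at day 6 of differentiation, and at day 6 with the chromatin remodeller Smarca4 knocked down. The rows of the gene table named Ring1, Rnf2, Bmi1, Pcgf2, Pcgf6, Cbx2, Cbx7, Cbx8 and Rybp were taken, which is 9 of 25965 listed genes. All 9 were among the 13264 genes whose mean log2 CPM (log2 of the reads of a gene in every 1000000 counted reads) over the 4 libraries was at least 0.

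PRC1 attaches ubiquitin to histone H2A and represses developmental genes. A RING-type ligase, Ring1 or Rnf2, always pairs with a PCGF-type subunit, of which Bmi1, Pcgf2 and Pcgf6 are examples. Canonical PRC1 carries a CBX subunit, whose chromodomain binds the trimethylated histone H3 left by PRC2, and variant PRC1 carries Rybp or its paralogue Yaf2 at the same place. In mESCs Cbx7 is known as the leading CBX subunit, and Cbx2 and Cbx8 are known as paralogues that take its place in other cell types. Variant PRC1 with Pcgf3 or Pcgf5 is known to be brought to the X chromosome by Xist RNA, so the family also bears on the X chromosome inactivation that the study examined.

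RNA-seq was available for 4 libraries of an mESC line from an FVB/NJ by CAST/EiJ F1 cross, with 1 library in each group. The day 0 library came from undifferentiated cells kept in 2i and LIF, and the other 3 from cells withdrawn into serum medium and collected at day 6. All 3 day 6 cultures were transduced with a retroviral hairpin on day 2 and selected with puromycin from day 3: Nons is the non-silencing control, and Smarca4.4 and Smarca4.6 are separate hairpins against Smarca4, an ATPase of the BAF complex. The day 0 and Nons libraries therefore also differ in medium, transduction and selection, and these cannot be told apart from differentiation. Groups follow the titles, since the genotype field calls even the Nons culture a Smarcc knockdown.

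Library totals ran from 18599402 reads at day 0 to 47143739 in Smarca4.4, and 3 reads, the level a count of 0 still allows, corresponded to between 0.0636 and 0.161 CPM. Smarca4 RNA stood at 57.3% of Nons under hairpin Smarca4.4 and at 75.8% under hairpin Smarca4.6, so both depletions of RNA were partial. Smarca4 protein is not measured by these libraries. Of 5 pluripotency markers, Nanog, Zfp42, Esrrb and Sox2 were lower in all 3 day 6 libraries while Pou5f1 measured 9.50 log2 CPM at day 0 and from 9.45 to 9.94 at day 6, and the list summed to 3139 CPM at day 0 against 1049 (Nons), 814 (Smarca4.4) and 1092 CPM (Smarca4.6) at day 6. Mesenchymal markers summed to 7.20 CPM at day 0, with Acta2 at 0 reads, and, at day 6, to 941 (Nons), 694 (Smarca4.4) and 578 CPM (Smarca4.6), most of it Tagln. Endoderm markers summed to between 2.36 and 5.38 CPM, with Afp at no more than 3 reads in any library, and neural markers to 169 CPM at day 0 and between 441 and 481 CPM at day 6, the day 6 sums mostly from Nes. In Nons, Nes alone of the 4 neural markers was above day 0 (log2 CPM of 8.57 against 5.45), and Pax6, Sox1 and Tubb3 were below it. The part of these marker shifts in the differences reported here was not tested, and in bulk RNA fewer cells of a type and less RNA per cell cannot be told apart. With 1 library per group there was no spread between replicates, no test was made, and the 95% intervals given (exact, from recovered reads) cover counting error between 2 libraries only.

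The hairpin target sites are shown because they define the knockdown. The Smarca4.4 site lies in coding sequence of exon 34 of Smarca4 (chr9:21703328-21703349, plus strand, mm10, numbered on transcript ENSMUST00000098948.9) and the Smarca4.6 site in coding sequence of exon 22 (chr9:21670505-21670525). Among GENCODE M21 transcripts both matched Smarca4 and no other gene, and the Nons site matched no gene. None of the 45 annotated transcripts of the 9 PRC1 genes held any of the 3 sites in full. Only exact matches of a whole site were searched, so partial matches in these or other genes were not examined.
Smarca4.4: ctggagtcagacagtaataaat
Smarca4.6: ctgatgaacactattatgcaa
Nons: tctcgcttgggcgagagtaag

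Promoter sequence is shown for Bmi1 and Cbx8, the genes furthest below day 0 at day 6, and for Cbx7, the CBX gene of the 9 that was above it. The sequences are from RefSeq on GRCm38.p6, run 5′ to 3′ on the gene's own strand, stop before the first annotated exon base, and have CpG dinucleotides in capitals. They cover chr2:18676768-18677017 on the plus strand for Bmi1, chr11:119040970-119041163 on the minus strand for Cbx8 and chr15:79932769-79932896 on the minus strand for Cbx7. The Cbx7 stretch lies upstream of RefSeq's start and lies inside the longer gene interval of the deposited table.
Bmi1: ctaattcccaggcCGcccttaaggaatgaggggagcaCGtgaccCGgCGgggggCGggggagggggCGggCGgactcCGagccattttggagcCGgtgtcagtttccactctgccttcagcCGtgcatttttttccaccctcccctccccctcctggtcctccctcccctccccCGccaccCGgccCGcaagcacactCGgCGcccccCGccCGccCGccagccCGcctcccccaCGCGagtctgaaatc
Cbx8: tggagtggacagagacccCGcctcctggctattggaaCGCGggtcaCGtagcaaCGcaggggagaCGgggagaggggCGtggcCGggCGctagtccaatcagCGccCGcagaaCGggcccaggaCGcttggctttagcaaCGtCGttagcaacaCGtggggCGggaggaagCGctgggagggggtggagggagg
Cbx7: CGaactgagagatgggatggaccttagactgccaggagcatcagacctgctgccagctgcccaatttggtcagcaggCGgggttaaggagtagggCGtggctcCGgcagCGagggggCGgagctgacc

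RefSeq promoters were matched for 7 of the 9 genes, all but Cbx2 and Rybp. Over the 250 bases before the start, 30 CpGs were counted for Ring1, 23 for Cbx7, 22 for Cbx8, 21 for Bmi1, 20 for Rnf2, 14 for Pcgf6 and 5 for Pcgf2. The median of 32851 mouse promoters was 6, so the Pcgf2 window alone lay below it. That window (chr11:97699649-97699898, minus strand) lies inside the deposited gene interval, which runs to 97700497. Its letters and CpG count therefore describe bases before RefSeq's start only, and sequence before the deposited gene end was not examined. The E-box letters CACGTG, searched on both strands, occurred in the windows of Bmi1, Cbx8 and Pcgf2, and in 6.02% of all promoters; in the Bmi1 and Cbx8 sequences shown they surround a capital CG. The letters TTCCCGC, GCGCATGC and CCGGAAG, written for E2F, NRF1 and ETS factors, occurred in none of the 7 windows and in 3.82%, 2.26% and 6.91% of all promoters. A match describes letters only, and no match says nothing about a factor.

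**Figure D1:**
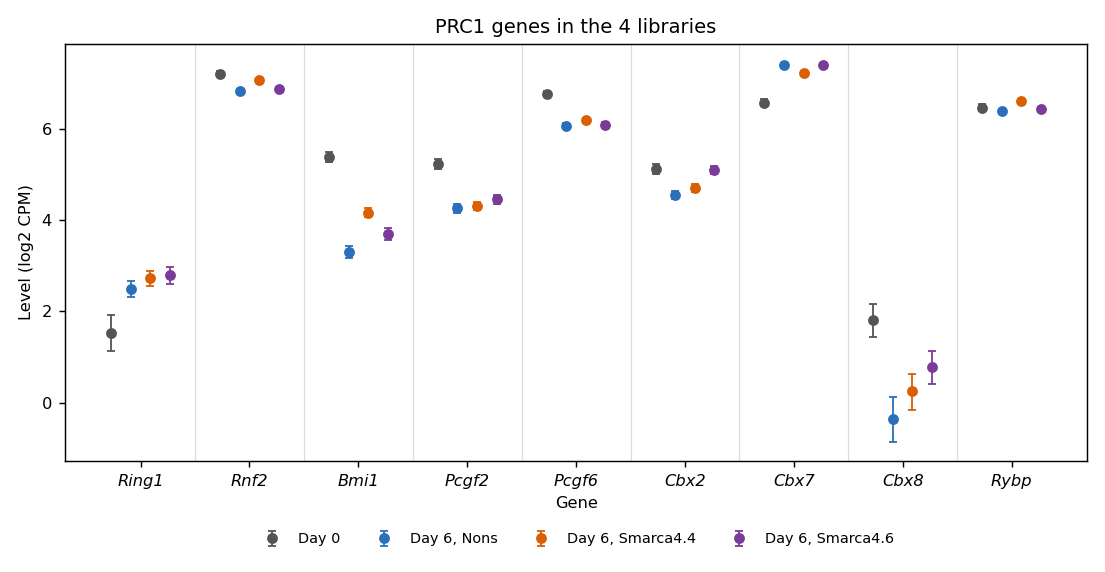
Level of each PRC1 gene (vertical axis, log2 CPM) in the 4 libraries (colours); bars are exact 95% Poisson intervals of the reads, which cover counting error only. The day 0 point is the highest for 6 of the 9 genes, and the Nons point is the lowest for 7. For Rnf2, Pcgf2, Pcgf6, Cbx8 and Rybp the Nons point cannot be told from the next by counting error. The share of all genes with these orders was not computed.

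On differentiation the PRC1 genes did not move as a block. Bmi1 and Cbx8 were more than 4-fold lower in Nons at day 6 than at day 0, Pcgf2, Pcgf6, Cbx2 and Rnf2 were lower by smaller amounts, Rybp was nearly level, and Ring1 and Cbx7 were higher. Past a 2-fold limit, 0 genes were higher and 2 lower. Of all 13264 genes, 19.6% were 2-fold or more higher and 12.3% 2-fold or more lower in the same comparison. The median difference of the 9 genes was -0.56 log2, and that of all genes was 0.031. Counting intervals lay above 0 for 2 genes, below 0 for 6, and included 0 for Rybp. For all genes the share of intervals that excluded 0 was not computed, so these interval counts have no background. By direction alone 2 of the 9 genes were higher and 7 lower, beside 6822 and 6442 of all 13264 genes. With upper-quartile scaling in place of the library total, Ring1 reached 1.03 and passed the limit.

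The RING ligases came in unequal amounts. Rnf2 (Ring1b, chromosome 1, 151469406 to 151500823 in mm10), the main H2A ligase of mESCs, measured 7.20 log2 CPM at day 0 and, at day 6, 6.83 under Nons, 7.06 under Smarca4.4 and 6.88 under Smarca4.6. It was highest at day 0 and was 0.37 lower in Nons (difference -0.37, interval -0.44 to -0.31). Ring1 (Ring1a, chromosome 17, 34020792 to 34024680) measured 1.54 log2 CPM at day 0 and, at day 6, 2.49 under Nons, 2.73 under Smarca4.4 and 2.79 under Smarca4.6. Ring1 was lowest at day 0, from 54 reads, and higher in Nons by 0.95 (0.52 to 1.40), while its neighbouring day 6 levels overlapped within counting error.

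Per length of merged exons, Rnf2 made up 97.6% of the RING level at day 0 (96.8 to 98.2), and Ring1 the remaining 2.45% (1.84 to 3.18). At day 6 the Ring1 share was 5.91% (Nons), 5.94% (Smarca4.4) and 6.97% (Smarca4.6), above day 0 in each with intervals that did not overlap that of day 0. Even so Rnf2 remained above 93% in every library. The summed RING level was 36.6 CPM per kb at day 0 and, at day 6, 29.3 (Nons), 34.3 (Smarca4.4) and 30.7 CPM per kb (Smarca4.6).

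Bmi1 and Pcgf2 are the PCGF subunits of canonical PRC1. Bmi1 (Pcgf4, chromosome 2, 18677018 to 18686629) measured 5.39 log2 CPM at day 0 and, at day 6, 3.31 under Nons, 4.16 under Smarca4.4 and 3.70 under Smarca4.6. Its 4 levels were all apart beyond counting error, and Nons, with 453 reads, was the lowest at 23.7% of day 0 (difference -2.08, interval -2.25 to -1.91). Pcgf2 (Mel18, chromosome 11, 97688823 to 97700497) measured 5.22 log2 CPM at day 0 and, at day 6, 4.26 under Nons, 4.31 under Smarca4.4 and 4.46 under Smarca4.6. Pcgf2 was 0.96 lower in Nons than at day 0 (difference -0.96, interval -1.11 to -0.82), just inside the 2-fold limit, and its Nons and Smarca4.4 levels were not apart.

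Pcgf6 belongs to a variant PRC1 with L3mbtl2, E2f6, Mga and Max that is known for repressing germline genes. Pcgf6 (chromosome 19, 47033619 to 47050845) measured 6.77 log2 CPM at day 0 and, at day 6, 6.07 under Nons, 6.18 under Smarca4.4 and 6.09 under Smarca4.6. The 3 day 6 levels lay close together, and Nons was below day 0 by 0.71 (difference -0.71, interval -0.79 to -0.62).

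Among the 6 PCGF paralogues, Bmi1 held a smaller share and Pcgf5 a larger one at day 6 than at day 0. Per length, Bmi1 made up 17.8% of the PCGF sum at day 0 (16.7 to 18.9), with Pcgf2 at 17.9% and Pcgf3 at 18.5%. This near equality depended on the length used: by the longest transcript Bmi1, Pcgf2 and Pcgf3 held 13.1%, 16.9% and 15.2%, and without a length 13.0%, 11.6% and 32.5%. The Bmi1 share under Nons was 6.12% (5.59 to 6.68), and under the hairpins it was 9.92% (Smarca4.4) and 8.02% (Smarca4.6). Pcgf5 went the other way, from 3.06% at day 0 to 10.1% (Nons), 11.5% (Smarca4.4) and 8.68% (Smarca4.6). Pcgf3, the close paralogue of Pcgf5, held 18.5% at day 0 and between 24.1% and 25.04% at day 6. Pcgf1, the subunit that pairs with Kdm2b and Bcor, held 6.16% at day 0 and 13.0% (Nons), 9.22% (Smarca4.4) and 10.7% (Smarca4.6) at day 6. By merged exons or the longest transcript Pcgf6 had the largest share in all 4 libraries, by merged exons at 36.7%, 32.7%, 31.9% and 33.2%, and Pcgf2 held 13.3%, 12.4% and 15.3% in the 3 day 6 libraries. Without a length Pcgf3 led at day 6, with 38.0% against 26.5% for Pcgf6 in Nons. The summed PCGF level was 59.3 CPM per kb at day 0 and between 40.7 and 45.3 CPM per kb at day 6.

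**Figure D2:**
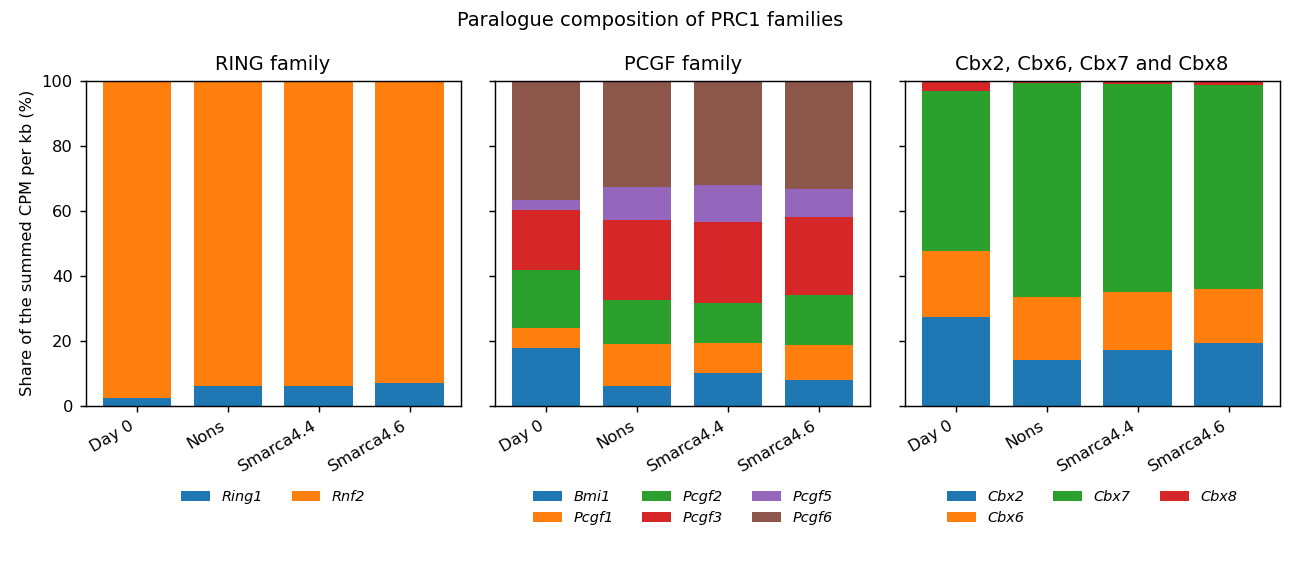
Share of each paralogue (vertical axis, percent of the summed CPM per kb of merged exons) in the RING and PCGF families and among Cbx2, Cbx6, Cbx7 and Cbx8, with 1 bar per library. Rnf2 fills over 93% of each RING bar, Bmi1 is narrower and Pcgf5 wider at day 6, and Cbx7 widens from 49.2% at day 0 to 66.1% in Nons.

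Of the 3 CBX genes among the 9, Cbx7 was higher in Nons than at day 0, and Cbx2 and Cbx8 were lower. Cbx7 (chromosome 15, 79915807 to 79971119) measured 6.57 log2 CPM at day 0 and, at day 6, 7.40 under Nons, 7.22 under Smarca4.4 and 7.41 under Smarca4.6. Day 0 was its lowest library, and Nons was above it by 0.82 (0.75 to 0.90). Cbx7 shares 100 exon bases with Apobec3 on the other strand, so a few of its reads are uncertain where strand was not used. Apobec3 lay 1.15 log2 lower in Nons than at day 0 (difference -1.15), the opposite direction to Cbx7.

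Cbx2 (chromosome 11, 119022962 to 119031270), which compacts nucleosome arrays, measured 5.12 log2 CPM at day 0 and, at day 6, 4.56 under Nons, 4.70 under Smarca4.4 and 5.10 under Smarca4.6. Nons was below day 0 by 0.56 (difference -0.56, interval -0.70 to -0.42), and the Smarca4.6 level could not be told from day 0. Cbx8 (chromosome 11, 119036305 to 119040969) measured 1.81 log2 CPM at day 0 and, at day 6, -0.35 under Nons, 0.25 under Smarca4.4 and 0.79 under Smarca4.6, from 65, 36, 56 and 63 reads. Nons stood at 22.5% of day 0 (difference -2.15, interval -2.78 to -1.54), and neighbouring day 6 levels overlapped within counting error.

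Cbx6, a CBX paralogue outside the 9 genes, measured 6.00 log2 CPM at day 0 and, at day 6, 6.33 under Nons, 6.09 under Smarca4.4 and 6.17 under Smarca4.6. Cbx6 shares 563 exon bases with the overlapping gene Npcd, which leaves its reads uncertain. Per length, over Cbx2, Cbx6, Cbx7 and Cbx8 together, Cbx7 made up 49.2% at day 0 (47.6 to 50.9), 66.1% under Nons (65.3 to 66.9), 64.2% under Smarca4.4 and 63.1% under Smarca4.6. Cbx2 held 27.3% at day 0, 14.1% under Nons and 19.4% under Smarca4.6, with Smarca4.4 between the last pair. Cbx8 held 3.19% at day 0 and, at day 6, 0.54% (Nons), 0.90% (Smarca4.4) and 1.13% (Smarca4.6). The shares of Cbx2 and Cbx8 were each lowest in Nons. The sum of these 4 genes was 29.8 CPM per kb at day 0 and, at day 6, 39.4 (Nons), 35.9 (Smarca4.4) and 41.4 CPM per kb (Smarca4.6).

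Rybp, which occupies the CBX place on the RING ligase in variant PRC1 and binds ubiquitinated H2A, was the steadiest of the 9 genes. Rybp (chromosome 6, 100228566 to 100287441) measured 6.46 log2 CPM at day 0 and, at day 6, 6.38 under Nons, 6.60 under Smarca4.4 and 6.44 under Smarca4.6, a range of 0.22. The difference of Nons from day 0 was -0.082 (-0.17 to 0.0026). Its paralogue Yaf2 stood at 4.45, 5.16, 5.31 and 5.21 in the same order, higher in Nons by 0.71 (0.55 to 0.87). Per length, Rybp made up 61.4% of the pair at day 0 and 48.0% (Nons), 49.1% (Smarca4.4) and 48.0% (Smarca4.6) at day 6. Without a length its share was 80.1% at day 0 and 70.0% (Nons), 71.0% (Smarca4.4) and 70.0% (Smarca4.6) at day 6. The near parity at day 6 thus depends on the length used, while the lower share than at day 0 does not.

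**Figure D3:**
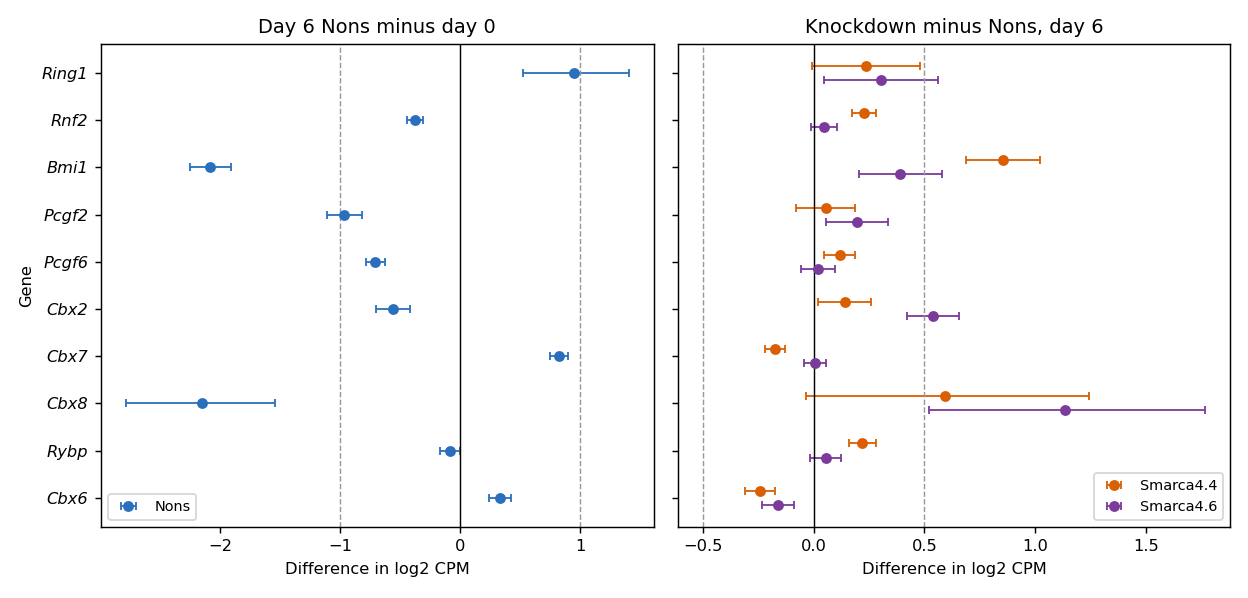
Difference in log2 CPM (horizontal axis) of the 9 PRC1 genes and of Cbx6, for Nons minus day 0 (left) and for each knockdown minus Nons (right); bars are exact 95% intervals for counting error, and dashed lines mark 1 log2 (left) and 0.5 log2 (right). Bmi1 and Cbx8 lie past -1 on the left, and Cbx8 lies past 0.5 with both hairpins on the right.

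The knockdown libraries were compared with Nons at day 6 to see whether Smarca4 depletion came with other levels of PRC1 genes. With Smarca4.4, Bmi1 was 1.81-fold higher and Cbx8 1.51-fold higher, and with Smarca4.6, Cbx8 was 2.19-fold and Cbx2 1.45-fold higher. A limit of 0.5 log2 was used here because knockdown differences were smaller than those on differentiation. Past it, 2 genes were higher and 0 lower with Smarca4.4, beside 5.63% and 3.62% of all genes. With Smarca4.6, 2 were higher and 0 lower, beside 8.46% and 5.49% of all genes. In the same direction with both hairpins, 1 gene (Cbx8) was higher and 0 lower, beside 3.23% and 1.91% of all genes. Both comparisons use the same Nons library, so a value particular to that library would enter both.

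For Bmi1 the difference from Nons was 0.85 (0.69 to 1.02) with Smarca4.4 and 0.39 (0.20 to 0.58) with Smarca4.6. Its Smarca4.4 level exceeded that of Smarca4.6 by 0.46 (0.30 to 0.63), and both remained below day 0, by differences of -1.23 and -1.69. Cbx8 differed from Nons by 0.59 (-0.035 to 1.24) with Smarca4.4 and by 1.13 (0.52 to 1.77) with Smarca4.6. The Cbx8 interval for Smarca4.4 included 0, so that higher value was not beyond counting error. Cbx2 differed by 0.14 (0.021 to 0.26) with Smarca4.4 and by 0.54 (0.42 to 0.66) with Smarca4.6, and the hairpins differed from each other by -0.40 (-0.51 to -0.28). The larger Bmi1 difference was thus seen with Smarca4.4 and the larger Cbx2 difference with Smarca4.6. The Cbx2 value lay near the limit, and it was 0.47 centred on the median of all genes and 0.49 with upper-quartile scaling. With 1 CPM added to each level, Cbx8 differed by 0.29 with Smarca4.4 and no gene passed with both hairpins.

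The abundant members differed little from Nons. Rnf2 and Rybp were higher with Smarca4.4 by 0.23 (0.17 to 0.28) and 0.22 (0.16 to 0.28), and with Smarca4.6 their differences were 0.048 (-0.010 to 0.11) and 0.054 (-0.015 to 0.12). Pcgf6 differed by 0.12 (0.047 to 0.19) with Smarca4.4 and 0.021 (-0.056 to 0.098) with Smarca4.6. Cbx7 differed by -0.17 (-0.22 to -0.13) with Smarca4.4 and by 0.0065 (-0.042 to 0.055) with Smarca4.6. For these 4 genes the Smarca4.4 interval excluded 0 and the Smarca4.6 interval included it.

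For Ring1 and Pcgf2 the Smarca4.6 interval excluded 0 and the Smarca4.4 interval included it. Ring1 differed from Nons by 0.24 (-0.0061 to 0.48) with Smarca4.4 and 0.30 (0.048 to 0.56) with Smarca4.6. Between the hairpins its levels were not apart (Smarca4.4 minus Smarca4.6 -0.067, interval -0.31 to 0.18). Pcgf2 differed by 0.054 (-0.080 to 0.19) with Smarca4.4 and 0.20 (0.057 to 0.34) with Smarca4.6. Set directly against Smarca4.6, the Smarca4.4 library was higher beyond counting error for Bmi1, Rnf2, Pcgf6 and Rybp and lower for Pcgf2, Cbx2 and Cbx7. Smarca4.4 was also the library with less Smarca4 RNA. The median difference of the 9 genes from Nons was 0.22 with Smarca4.4 and 0.20 with Smarca4.6, beside 0.038 and 0.064 for all genes.

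Against day 0 rather than Nons, Bmi1 stood at 42.7% under Smarca4.4 and 31.05% under Smarca4.6, and Cbx8 at 34.0% and 49.4%. Neither gene reached its day 0 level in a knockdown library. Cbx2 stood at 98.6% of day 0 in Smarca4.6 (difference -0.020, interval -0.16 to 0.12) and at 74.8% in Smarca4.4. Across the 9 genes Nons was the lowest library for Rnf2, Bmi1, Pcgf2, Pcgf6, Cbx2, Cbx8 and Rybp, and day 0 for Ring1 and Cbx7, though for Rnf2, Pcgf2, Pcgf6, Cbx8 and Rybp the lowest library could not be told from the next by counting error.

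**Figure D4:**
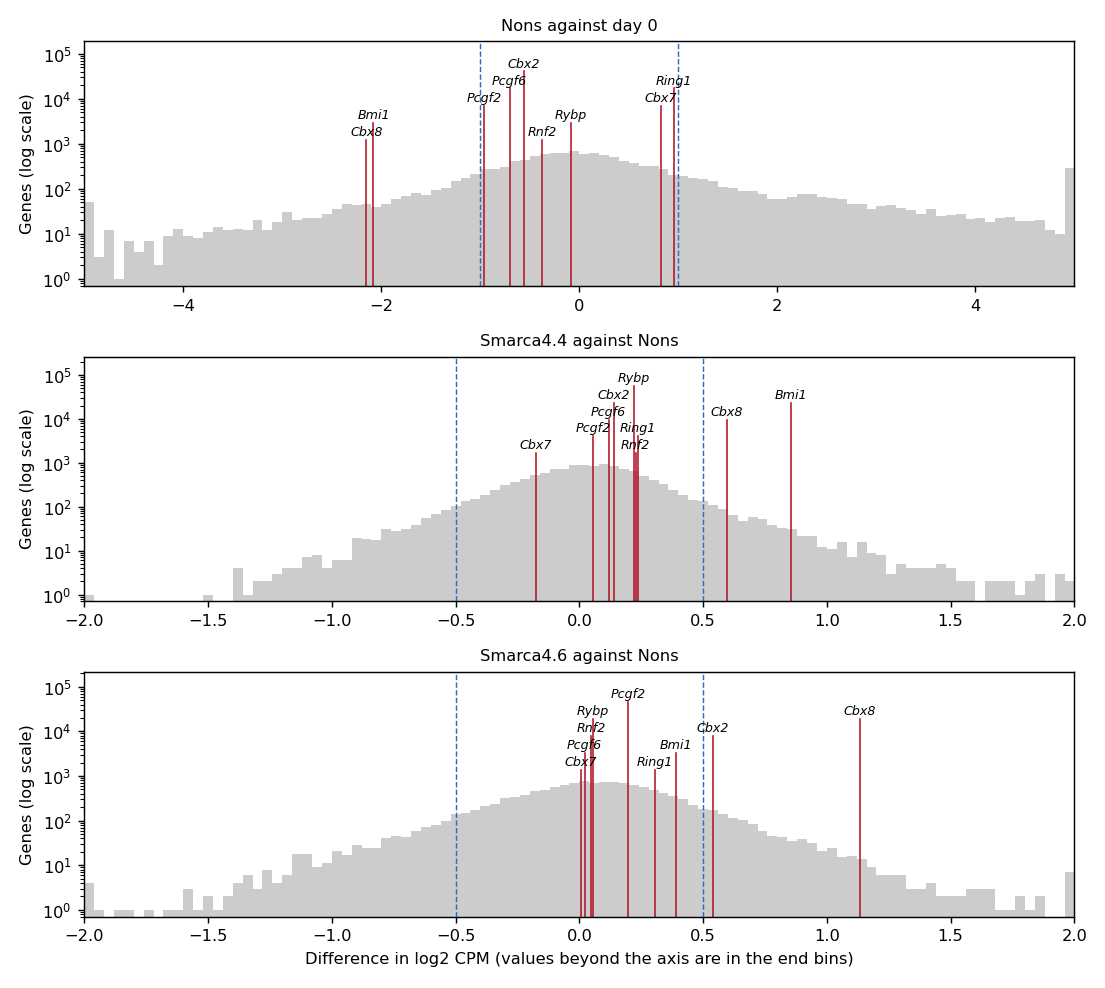
Distribution of the difference in log2 CPM over the 13264 genes (grey, counts on a log axis) in each comparison, with the 9 PRC1 genes as red lines and the fold limits as dashed lines. Cbx8 and Bmi1 lie in the lower tail for Nons against day 0, Bmi1 and Cbx8 past the upper limit with Smarca4.4, and Cbx8 and Cbx2 past it with Smarca4.6.

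Set among all genes, Bmi1 and Cbx8 stood low on differentiation, with 4.09% and 3.90% of genes below them. With Smarca4.4, 98.6% of genes lay below Bmi1, and with Smarca4.6, 99.4% lay below Cbx8 and 92.9% below Cbx2. Ring1 had 79.7%, 79.9% and 79.8% of genes below it in the 3 comparisons. The other placements ran from 13.0% for Pcgf2 on differentiation to 96.1% for Cbx8 with Smarca4.4.

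A list of 31 other PRC1 subunits and partners, all of which passed the filter, was read in the same way. On differentiation 1 was 2-fold or more higher (Pcgf5, difference 1.18) and 4 were 2-fold or more lower, namely Scml2 (-2.93), Scmh1 (-1.74), Fbrsl1 (-1.13) and Mga (-1.02). Of all genes, 19.6% were higher and 12.3% lower by that limit. Mga lay near the limit: 3 genes, without Mga, were lower with upper-quartile scaling, and 5 when centred on the median of all genes. Scmh1 and Scml2 are Sex comb on midleg homologues that join canonical PRC1 through Phc proteins, and Mga is the scaffold of the Pcgf6 complex. Scml2 measured 5.60 log2 CPM at day 0 and, at day 6, 2.66 under Nons, 3.49 under Smarca4.4 and 2.73 under Smarca4.6, and Scmh1 5.40, 3.66, 3.77 and 3.58. Scml2, Bcor and Bcorl1 of this list lie on the X chromosome. The part of X inactivation in the Scml2 values was not tested. The list's median difference was -0.42, and its intervals lay above 0 for 8 genes, below 0 for 22 and included 0 for 1. The share of all genes whose interval excluded 0 was not computed, so these interval counts have no background. By direction alone 9 were higher and 22 lower, beside 6822 and 6442 of all 13264 genes.

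With Smarca4.4, 1 of the 31 genes was 0.5 log2 or more above Nons, Scml2 at 0.82 (0.61 to 1.03). With Smarca4.6, 4 were, Tfdp1, Phc2, Hdac1 and Auts2 at 0.59, 0.55, 0.51 and 0.51. None was lower by that much with either hairpin, and 0 of the 31 genes passed the limit with both. Beside these counts, 5.63% of all genes were higher and 3.62% lower with Smarca4.4, and 8.46% and 5.49% with Smarca4.6. With both hairpins 3.23% of all genes were higher and 1.91% lower. Phc1, the main polyhomeotic subunit of mESCs, made up between 88.6% and 90.9% of the Phc level per length in the 4 libraries. The list's medians were 0.13 and 0.062. With either other scaling 1 of the 4 genes past the limit with Smarca4.6 was left, Tfdp1.

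The remaining PCGF paralogues, counted in this list, stayed within 0.5 log2 of Nons. Pcgf5 differed by 0.33 (0.26 to 0.41) with Smarca4.4 and by -0.22 (-0.31 to -0.13) with Smarca4.6, with the intervals on opposite sides of 0. Pcgf1 differed by -0.34 (-0.55 to -0.12) and -0.28 (-0.51 to -0.052), and Pcgf3 by 0.17 (0.11 to 0.23) and -0.035 (-0.10 to 0.030). Of these 3 genes, Pcgf1 was below Nons with both hairpins. Cbx6, in the same list, was also below Nons, by -0.24 (-0.31 to -0.17) with Smarca4.4 and -0.16 (-0.23 to -0.089) with Smarca4.6.

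Enzymes that remove ubiquitin from H2A, and the Asxl cofactors of Bap1, form the opposing list of 6 genes. On differentiation 1 of 6 was 2-fold or more higher and 0 lower, beside 19.6% and 12.3% of all genes. With each hairpin 1 of 6 was 0.5 log2 or more above Nons and 0 below. Of all genes, 5.63% were above and 3.62% below by that limit with Smarca4.4, and 8.46% and 5.49% with Smarca4.6. The gene was Asxl3 each time, which measured -0.63 log2 CPM at day 0 and, at day 6, 1.62 under Nons, 2.34 under Smarca4.4 and 2.35 under Smarca4.6. Its day 0 level rested on 12 reads, and it passed the filter through its day 6 levels. Its differences were 2.26 for Nons from day 0, and 0.71 (0.41 to 1.02) and 0.73 (0.40 to 1.05) for the hairpins from Nons. Bap1, the deubiquitinase itself, was 0.91 (0.82 to 1.01) higher in Nons than at day 0. Asxl2 went the other way, from 6.53 log2 CPM at day 0 to 5.61 in Nons. Of the 6 genes, 3 were above day 0 in Nons and 3 below, with a median difference of -0.058.

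Cbx6 and Cbx7 lie within 147 kb of each other on chromosome 15, and 6 other genes within 100 kb of them passed the filter. The differences of these 6 genes for Nons from day 0 ran from -1.15 to 4.10 (median 0.29). Like Cbx7, 5 of the 6 were above day 0, and Apobec3, which overlaps Cbx7, was below it. Of all 13264 genes, 6822 were above day 0. Sun2, counted among the 5, was nearly level at 0.051, and the intervals of Npcd and Nptxr overlap that of Cbx6.

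By the root mean square difference of centred log2 CPM over the 4 libraries, the genes most like Ring1 were Hmgxb4 (0.020), Clcn4-2 (0.020) and Lrrc16a (0.027), and 132 genes lay within 0.1 of it. The genes most like Cbx8 were Pla2g4c (0.075), Dpf1 (0.092) and Slc47a1 (0.096), and 4 lay within 0.1. The measure rests on 4 libraries, and it describes likeness of level only.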

How the data were processed

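The deposited table holds log2 CPM values per gene, made by the authors in SeqMonk by scaling paired-end reads over exons to the library total. The authors trimmed reads with trim_galore and used hisat2 or tophat, both named in their methods, to align to mm10 with the strains' variable positions masked. Exon reads of both alleles were combined, and the strand setting was not stated. Each library's values were whole multiples of 1 step, with 0 reads written as 0.9 of a step, which returned the reads: over 99.98% of nonzero values were whole within 0.1 read. Differences are between log2 CPM values as deposited. Intervals are exact (Clopper-Pearson for differences and shares, Poisson for levels) at 95% and cover counting error only. Genes with a mean log2 CPM of at least 0 were kept. Calls are 2-fold on differentiation and 0.5 log2 on knockdown. CPM per kb used merged exons of GENCODE M21 (GRCm38, the assembly of mm10).

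The named genes are the 9 PRC1 genes, Cbx6 and every Pcgf paralogue, genes of the PRC1 and deubiquitinase lists past the limit on differentiation or with both hairpins, Smarca4, the 3 genes most like Ring1 and most like Cbx8 (the members furthest above and below day 0), and up to 3 PRC1 targets in each direction. Genes past the limit with 1 hairpin, Yaf2, Phc1, Bap1, Asxl2, Bcor, Bcorl1, Gata4, Gata6, Cdx2 and chromosomal neighbours were added after their values were seen. Some listed results are not reported here. The members and lists were chosen with earlier results of these data known. Alternatives were median centring, upper-quartile scaling, a pseudocount of 1 CPM, other filters and other lengths. The computations were tested on simulated reads. Tools were scipy 1.17.1 and numpy 2.4.6 for intervals, pandas 2.3.3 for tables and matplotlib 3.10.9 for figures, under Python 3.11.15.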

Additional observations from a re-analysis of the deposited data

How the results depend on the processing

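Of 85 recomputed counts, medians and leading paralogue shares, 69 stayed within their limits, and 74 of 81 differences of the 9 genes stayed within their counting interval. The medians of the 9 genes kept their direction in each of 3 comparisons under each scaling and with the pseudocount. Centred on the median of all genes, 1 of the 9 genes and 1 of the other PRC1 genes were higher with Smarca4.6. With upper-quartile scaling those counts were again 1 and 1, and on differentiation 1 of the 9 genes and 2 of the others were higher. With a pseudocount of 1 CPM, 1 of the 9 genes was higher with Smarca4.4 and 0 with both hairpins. A filter on a mean log2 CPM of at least 3 put 2.32% of all genes higher with Smarca4.4 and 4.66% with Smarca4.6, and no filter 10.3% and 11.0%. By the longest transcript the Pcgf6 share was 43.4% at day 0 and 36.9% in Nons, and the Cbx7 share 46.3% and 62.6%. Without a length, Pcgf6 was at 34.0% and 26.5%, and in Nons Cbx7 was at 61.7% and Rnf2 at 95.3%. The cause was not tested for the shifts with scaling. With Smarca4.6 the differences of Rnf2, Pcgf6, Cbx7 and Rybp, whose intervals included 0, went to -0.015, -0.042, -0.057 and -0.010 with centring, and those of Rnf2, Pcgf6 and Cbx7 were also below 0 with upper-quartile scaling. Other PRC1 genes lower on differentiation numbered 3 with upper-quartile scaling and 5 with centring. Without a length Pcgf3 in place of Pcgf6 led the PCGF genes in the 3 day 6 libraries. Depth limits Cbx8, with 36 to 65 reads a library, and Ring1 at day 0. No paired analysis was possible because there is just 1 library a group, and for the same reason no replicate could be left out.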

Other observations

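A list of 16 textbook PRC1 targets, developmental regulators and the Cdkn2a and Cdkn2b inhibitors, was read beside its repressors, and 9 of its genes passed the filter. On differentiation 5 of the 9 were 2-fold or more higher in Nons and 2 were lower, with a median difference of 1.03. The shares of all genes were 19.6% and 12.3%. This split depends on the filter. Hand1, Msx1 and Gata4 (-0.13 log2 CPM at day 0, 1.16 in Nons) were among those higher in Nons, and passed through their day 6 levels. Gata6 (1.83 log2 CPM at day 0, -0.71 in Nons) and Cdx2 (0.48, -2.19) were lower in Nons but did not pass. Against Nons, 2 were 0.5 log2 or more higher and 2 lower with Smarca4.4, beside 5.63% and 3.62% of all genes. With Smarca4.6, 5 were higher and 0 lower, beside 8.46% and 5.49%. With both hairpins 2 were higher, Hand1 and Pax6, beside 3.23% of all genes. The counts include T, the mesoderm factor brachyury, named after its values were seen: it had 18 reads in Nons, 12 with Smarca4.4 (difference -0.63, interval -1.81 to 0.51) and 91 with Smarca4.6 (difference 2.66, interval 1.92 to 3.48). T passed the filter through its day 0 and Smarca4.6 levels, and its lower value with Smarca4.4 was not beyond counting error.

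Hand1, a factor of extraembryonic and cardiac mesoderm, measured -1.90 log2 CPM at day 0 and 2.68, 4.28 and 3.45 under Nons, Smarca4.4 and Smarca4.6, which is 1.59 (1.40 to 1.79) and 0.77 (0.55 to 0.99) above Nons. Pax6, a neural and eye factor, measured 3.73, 2.88, 3.50 and 3.48 in the same order and was 0.62 (0.42 to 0.82) and 0.60 (0.39 to 0.81) above Nons. Sox17, an endoderm factor, was 0.43 (-0.011 to 0.88) and 0.73 (0.28 to 1.19) above Nons, so its Smarca4.4 interval included 0. Msx1, a homeobox factor of mesenchyme, measured -0.90 log2 CPM at day 0 and 3.70 under Nons, and differed from Nons by -0.56 (-0.74 to -0.38) and -0.40 (-0.60 to -0.21). Eomes differed from Nons by -0.20 (-0.30 to -0.094) and -0.31 (-0.43 to -0.20). Of the targets with at least 1 CPM in Nons, 8 in number, those named here lay on both sides of Nons. These 8 were picked by their level in Nons, which leaves out genes low there, such as T. A balance between higher and lower targets therefore cannot be read from them.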
